A study of Mus musculus with 6 samples.

Results

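The transcripts described here encode 9 proteins of the acute-phase response or their relatives. They are 5 paralogs of the Serpina3 cluster (Serpina3n, Serpina3g, Serpina3f, Serpina3i and Serpina3m), the siderophore-binding protein Lcn2, the serum amyloid Saa3, the hemoglobin-binding protein haptoglobin (Hp) and the plasma carrier Orm1. These 9 genes, of 26264 gene symbols in all, were read in all 6 libraries of a bulk RNA-sequencing series of brown adipocyte precursors. The set was chosen by its values, with results already in view: Serpina3n had the largest fall of all genes at day 9 in FGF8 cells, so the day 9 values below describe the choice and are not a test of it. Immortalized wild-type brown preadipocytes (genotype given as Bl6N, from the stromal vascular fraction of interscapular brown fat, immortalized with SV40 large T antigen) were pretreated with 5.5 nM FGF8 for 48 h or left untreated. They were harvested directly (day 0, preadipocytes) or after adipogenic differentiation on day 3 or day 9 (adipocytes). The last pair carries the label D7, read here as 7 days after 2 days of induction and called day 9. The design text could also be read as day 7 of differentiation. There is 1 library for each of the 6 conditions and no replicate, so a within-day difference of FGF8 from untreated has no test, and the intervals below cover counting error only.

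The acute-phase response is the shift in secreted plasma proteins that follows inflammation. Liver is its best known source, but adipocytes and fibroblasts also make several of these proteins. Cytokines of the IL-6 family act through the shared receptor subunit gp130 and STAT3, IL-1 and TNF act through NF-kB, and C/EBP factors and glucocorticoids act with both. Mouse Serpina3 genes arose by local duplication. Where the human genome has a single SERPINA3, alpha-1-antichymotrypsin, the mouse has a cluster whose members inhibit different serine proteases. Serpina3n is known as an inhibitor of granzyme B and other leukocyte proteases, and Serpina3g as an intracellular inhibitor of cathepsins.

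Reads can be shared between paralogs, so the sequences come first. The 5 genes lie in 1 cluster on chromosome 12, on the plus strand of GRCm39, the build the reads were aligned to: Serpina3f at chr12:104180772-104187388, Serpina3g at chr12:104202386-104208203, Serpina3i at chr12:104229363-104238677, Serpina3m at chr12:104304745-104361078 and Serpina3n at chr12:104372810-104380597. In the GENCODE M39 annotation Serpina3g overlaps the pseudogene Gm56487. Serpina3m overlaps Serpina3k, Serpina3l-ps and Gm61053 on the same strand. No annotated gene overlaps Serpina3n, Serpina3f or Serpina3i. Over aligned coding bases, Serpina3n was 84.3% identical to Serpina3g (648 bases, since the canonical Serpina3g transcript has a shorter coding sequence), 84.6% to Serpina3f, 85% to Serpina3i, 85.2% to Serpina3m and 85.5% to Serpina3c. The closest pair among the 5 was Serpina3f with Serpina3i at 91.2%. The identity is uneven along the gene. A pair of exonic coding stretches of 60 bases is shown for that reason, the least and the most alike of 326 gap-free windows that lie in 1 exon of all 5 genes, with capitals marking each base that differs from Serpina3n. In the least alike window, 31 of 60 positions were the same in all 5 genes:
Serpina3n (chr12:104377438-104377497): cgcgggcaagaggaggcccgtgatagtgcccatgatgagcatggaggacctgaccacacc
Serpina3g (chr12:104205346-104205405): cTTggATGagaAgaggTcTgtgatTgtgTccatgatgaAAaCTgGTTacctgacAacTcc
Serpina3f (chr12:104184517-104184576): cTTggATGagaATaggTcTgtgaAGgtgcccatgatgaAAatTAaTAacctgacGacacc
Serpina3i (chr12:104232756-104232815): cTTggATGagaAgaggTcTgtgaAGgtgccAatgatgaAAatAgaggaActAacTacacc
Serpina3m (chr12:104357767-104357826): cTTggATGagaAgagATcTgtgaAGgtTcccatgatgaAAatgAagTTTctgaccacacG
In the most alike window, 55 of 60 positions were the same:
Serpina3n (chr12:104377544-104377603): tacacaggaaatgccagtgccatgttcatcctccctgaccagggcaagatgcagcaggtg
Serpina3g (chr12:104205452-104205511): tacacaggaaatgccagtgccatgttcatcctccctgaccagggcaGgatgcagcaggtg
Serpina3f (chr12:104184623-104184682): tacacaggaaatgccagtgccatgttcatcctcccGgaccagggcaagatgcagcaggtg
Serpina3i (chr12:104232862-104232921): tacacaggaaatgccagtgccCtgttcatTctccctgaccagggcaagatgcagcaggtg
Serpina3m (chr12:104357873-104357932): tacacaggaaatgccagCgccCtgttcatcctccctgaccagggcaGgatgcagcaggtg
Serpina3g and Serpina3f each differ from Serpina3n at 1 base of the second window, Serpina3i at 2 and Serpina3m at 3.

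**Figure D1:**
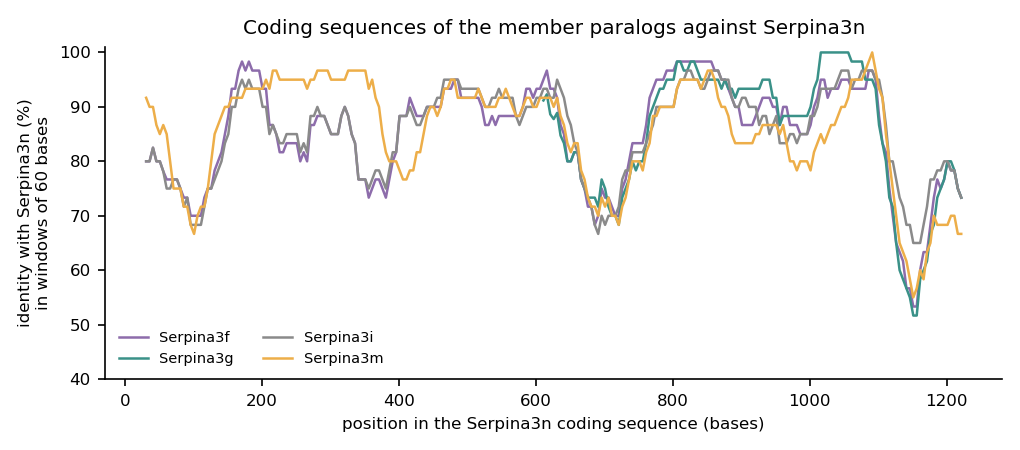
Percent identity with the Serpina3n coding sequence in windows of 60 bases (y axis) along that sequence in bases (x axis), 1 line for each of the 4 other member paralogs. Identity is uneven along the sequence and the lines do not all dip at the same places, and the Serpina3g line starts late because its canonical coding sequence is shorter.

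A read of 150 bases that matches without error can seldom fit more than 1 of these genes. None of the 150-base windows of the Serpina3n, Serpina3g, Serpina3f or Serpina3i canonical transcript occurs in a transcript of another Serpina3 gene, and 5 windows (0.149%) of Serpina3m occur in Serpina3k. Among 75-base windows, 1.33% of Serpina3n, 8.6% of Serpina3g, 5.52% of Serpina3f, 6.59% of Serpina3i and 4.73% of Serpina3m are shared. The settings used for reads with several matches, for strand and for the annotation are not given in the sources used here. Values of Serpina3g, Serpina3f, Serpina3i and Serpina3m are uncertain to that extent, and sums over the cluster are given beside them.

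The acute-phase genes outside the cluster are not near copies of each other. Orm1 and Saa3 have relatives nearby on the same chromosome, Orm2 and Orm3 for Orm1, and Saa1 and Saa2 for Saa3. Reads shared with these relatives were not checked. Lcn2 lies at chr2:32274645-32278264 on the minus strand, Saa3 at chr7:46361422-46365576 on the minus strand, Hp at chr8:110301759-110305804 on the minus strand and Orm1 at chr4:63261052-63272189 on the plus strand. Orm1 overlaps the lncRNA Gm52743 on the opposite strand and the pseudogene Gm11212.

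The promoters are shown because the cluster genes were lower together in FGF8 cells. RefSeq (GRCm38.p6) gave the 250 bases before the start for 6 of the 9 genes (Serpina3n, Serpina3g, Serpina3f, Serpina3i, Lcn2 and Saa3). Capitals mark matches, on either strand, to 5 motifs chosen with the results known: STAT (TTCNNNGAA), C/EBP (TTNNGNAA), NF-kB (its usual decamer), the interferon-response motif ISRE (TTTCNNTTTC) and the glucocorticoid receptor motif (ACANNNTGT):
Serpina3n (chr12:104406458-104406707, plus strand): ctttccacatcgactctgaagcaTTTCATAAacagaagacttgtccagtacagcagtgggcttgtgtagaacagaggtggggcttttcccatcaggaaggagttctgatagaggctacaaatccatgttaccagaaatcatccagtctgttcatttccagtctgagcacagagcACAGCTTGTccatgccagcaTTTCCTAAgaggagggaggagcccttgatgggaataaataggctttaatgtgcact
Serpina3f (chr12:104214294-104214543, plus strand): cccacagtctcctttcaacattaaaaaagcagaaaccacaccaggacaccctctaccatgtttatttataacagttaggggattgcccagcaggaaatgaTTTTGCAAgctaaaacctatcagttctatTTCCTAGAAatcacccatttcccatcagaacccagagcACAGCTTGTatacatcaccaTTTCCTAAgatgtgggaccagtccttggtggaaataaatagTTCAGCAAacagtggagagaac
Serpina3i (chr12:104262872-104263121, plus strand): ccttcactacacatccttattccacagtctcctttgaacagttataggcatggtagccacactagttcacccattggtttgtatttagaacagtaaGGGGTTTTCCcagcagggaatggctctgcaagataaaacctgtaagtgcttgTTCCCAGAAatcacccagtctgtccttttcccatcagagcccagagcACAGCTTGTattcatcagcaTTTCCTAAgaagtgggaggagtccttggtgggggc
Serpina3g (chr12:104235897-104236146, plus strand): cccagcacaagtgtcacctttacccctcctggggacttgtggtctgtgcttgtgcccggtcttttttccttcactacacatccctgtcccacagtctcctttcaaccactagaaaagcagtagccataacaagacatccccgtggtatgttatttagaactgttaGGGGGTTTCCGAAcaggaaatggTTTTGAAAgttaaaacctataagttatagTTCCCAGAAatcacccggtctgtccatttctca
Saa3 (chr7:46715677-46715926, minus strand): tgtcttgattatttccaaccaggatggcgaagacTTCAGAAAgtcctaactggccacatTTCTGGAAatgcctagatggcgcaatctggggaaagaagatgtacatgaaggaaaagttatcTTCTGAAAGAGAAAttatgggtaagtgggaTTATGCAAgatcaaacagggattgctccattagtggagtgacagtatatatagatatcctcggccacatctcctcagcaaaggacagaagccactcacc
Serpina3n, Serpina3f and Serpina3i hold the same pair of matches near the start, a glucocorticoid receptor match ACAGCTTGT followed by a C/EBP match TTTCCTAA. In Serpina3n the first of these begins 76 bases before the start and the second begins 56 bases before it. Serpina3g, Serpina3f and Serpina3i each hold a STAT match, and Serpina3g and Serpina3i an NF-kB match, which in Serpina3g overlaps a C/EBP match. Saa3 holds 4 C/EBP matches, 1 of them overlapping an ISRE match. Lcn2 holds 1 C/EBP match and 1 glucocorticoid receptor match, ACAGAATGT. Short motifs are common: of 32817 promoter windows of this length, 36.8% hold a C/EBP match, 7.01% a STAT match, 7.25% an NF-kB match, 5.84% a glucocorticoid receptor match and 2.97% an ISRE match. A match describes letters and not binding.

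Some facts about the libraries touch the results. The libraries held between 16403254 and 38551551 counts. Counts were divided by size factors (median of ratios over the 6 libraries), and these normalized counts are the values used below. The day 0 libraries stood apart from the later 4. Xist had 3716 and 7473 normalized counts at day 0 against 7.02 to 21.1 later, Ifi202b 15439 and 7311 against at most 0.702, and Gbp2b 7105 and 1197 against at most 1.27, while the Y-linked Ddx3y, Uty, Kdm5d and Eif2s3y were present in all 6 libraries (a set picked once its values were known). In all, 8 genes had at least 100 counts in both day 0 libraries and at most 3 in each later one, and 76 genes had the opposite pattern. No gene separated the day 3 from the day 9 pair in this way. A change from day 0 to day 3 therefore cannot be told apart from a difference in the source of the cells, whereas FGF8 and untreated libraries of 1 day, and day 9 against day 3, are on the same side of this split.

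Marker lists describe what the cells were. The adipocyte markers summed to 8666 (untreated) and 2370 (FGF8) normalized counts before differentiation, against 370686 and 633350 on day 3, and 527638 and 615851 on day 9, so all 4 later libraries had high adipocyte markers. The 8 preadipocyte markers summed to 220097, 201780 and 221426 normalized counts in untreated cells at days 0, 3 and 9, and to 91445, 65896 and 80086 in FGF8 cells. The collagen gene Col1a1 makes up most of these sums in the adipocyte libraries, and the median marker had 20411, 7826 and 7805 normalized counts in untreated and 7053, 1926 and 1497 in FGF8 cells. The markers were at least 2-fold lower in 5, 8 and 8 of 8 genes, among them the progenitor antigen Cd34, with log2 fold changes of -2.33 at day 3 and -3.77 at day 9, and Ly6a at -2.25 and -3.02. The fibroblast proteoglycan Dcn was at 0.84, -1.84 and -3.41. These lower preadipocyte markers run the same way as most results below, and their part in them was not tested. In bulk RNA, fewer cells of a type and less RNA per cell cannot be told apart. Markers of other usual sources of these proteins were low or absent. The 12 macrophage markers summed to 234.2 to 312.9 normalized counts in untreated and 140.6 to 190.8 in FGF8 cells. The defining Adgre1, C1qa, C1qb and C1qc were at 0 in every library. Between 2 and 4 of the 12 had at least 10 counts in each library. Cd14 and Csf1r were at least 2-fold lower with FGF8 at days 3 and 9, and Csf1r also at day 0. In untreated cells Csf1r had 45.5, 35.6 and 43.3 normalized counts at days 0, 3 and 9. In FGF8 cells it had 5.12, 6.32 and 10.6. Cd68 was close between treatments, at 39.7, 81.5 and 100.1 in untreated and 35.8, 91.3 and 100.8 in FGF8 cells. The 9 neutrophil markers summed to 5.69 to 46.8 normalized counts with S100a9 at 0 throughout, and the 7 hepatocyte markers to 8.13 to 21.1 with Ttr, Serpina1a and Cyp3a11 at 0 throughout.

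FGF8-pretreated cells had less Serpina3n than untreated cells at each of the 3 days, and the gap was larger on each later day. The larger gap at day 3 than at day 0 cannot be told apart from a difference in the source of the cells. The day 9 gap is the value that chose the gene. In untreated cells Serpina3n had 1108 normalized counts at day 0 (754 counts), 5443 at day 3 (4277 counts) and 3823 at day 9 (5386 counts). In FGF8 cells it had 480.1 (375 counts), 597.3 (851 counts) and 14.6 (18 counts). The untreated level was thus higher in both adipocyte libraries than in preadipocytes, and the FGF8 level was near its starting value on day 3 and close to background on day 9. The log2 fold change of FGF8 against untreated, on the log2(normalized count + 1) scale, came to -1.20 before differentiation (95% counting interval -1.39 to -1.03), -3.19 on day 3 (-3.30 to -3.08) and -7.93 on day 9 (-8.79 to -7.37). In ratios these are 2.31-fold, 9.11-fold and 261.3-fold lower. Among genes averaging 20 or more normalized counts over the pair of a day, the fold change of Serpina3n ranked 1115 from the lowest of 12657 at day 0, 23 of 12892 at day 3 and 1 of 13070 at day 9. The last rank is what chose the gene. Above a mean of 100 normalized counts at day 9 (11171 genes), the next were the matrix metalloproteinase Mmp3 at -6.33, Saa3 at -5.12 and the GPI-anchored antigen Ly6c1 at -5.01.

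**Figure D2:**
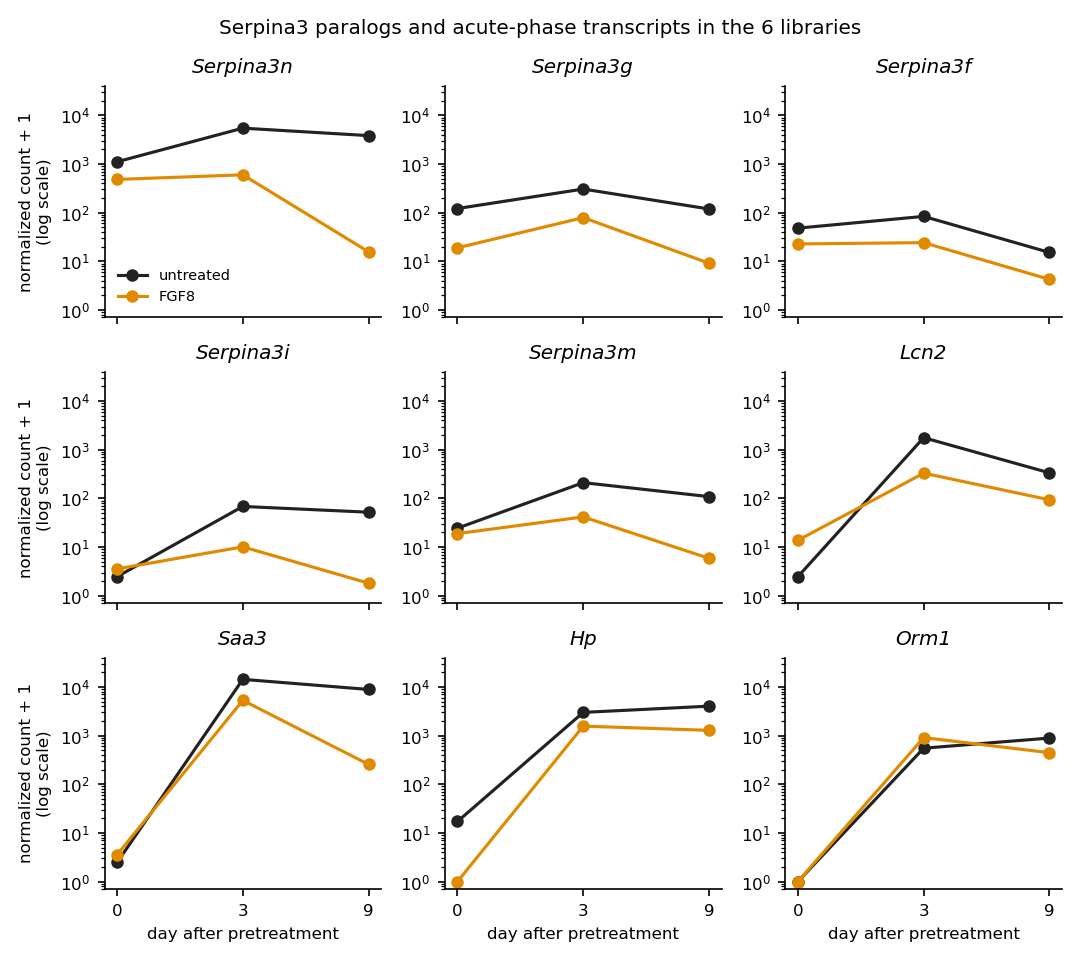
Normalized count plus 1 on a log scale (y axis) for each of the 9 genes at days 0, 3 and 9 after pretreatment (x axis, evenly spaced), with black points for untreated and orange points for FGF8-pretreated cells, 1 library per point. Serpina3n sits at 14.6 normalized counts in FGF8 cells at day 9 against 3823 in untreated cells, while Saa3, Hp and Orm1 are close to 0 at day 0 and high at day 3 in both treatments.

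The other paralogs were lower with FGF8 as well, from much lower levels. Serpina3g had 120.4, 304.2 and 117.8 normalized counts in untreated cells at days 0, 3 and 9 and 17.9, 77.9 and 8.13 in FGF8 cells. Its log2 fold changes were -2.68 (-3.68 to -1.92), -1.95 (-2.30 to -1.63) and -3.70 (-4.94 to -2.94), and the intervals of days 0 and 3 overlapped. Serpina3f had 47.0, 82.7 and 14.2 normalized counts in untreated cells and 21.8, 23.2 and 3.25 in FGF8 cells. Its log2 fold changes were -1.08, -1.79 and -1.84, the last from 20 against 4 counts and under the filter of 20 normalized counts.

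Serpina3m and Serpina3i were lower with FGF8 in the adipocyte libraries, and at day 0 their counts were too alike or too few to separate. Serpina3m had 23.5, 210.0 and 107.9 normalized counts in untreated cells and 17.9, 40.7 and 4.88 in FGF8 cells. Its log2 fold change at day 0, -0.37, had an interval that included 0 (-1.54 to 0.74), and at days 3 and 9 it was -2.34 (-2.82 to -1.93) and -4.21 (-5.94 to -3.31). Serpina3i had 1 and 2 counts at day 0, which gives no usable fold. It then had 67.5 against 9.13 normalized counts at day 3 (53 and 13 counts) and 51.1 against 0.813 at day 9 (72 counts and 1 count), a ratio of 62.9-fold at day 9 with a log2 interval of -11.30 to -3.45.

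Because reads may be split among paralogs, the cluster was also summed. The 5 paralogs together had 1300 normalized counts in untreated and 540.3 in FGF8 preadipocytes, 6108 and 748.3 on day 3, and 4114 and 31.7 on day 9. The log2 fold changes of the sum were -1.27 (-1.44 to -1.10), -3.03 (-3.13 to -2.93) and -6.98 (-7.51 to -6.57). With the 6 other listed Serpina3 genes added they were -1.28, -2.92 and -5.31 (-5.58 to -5.07). The pseudogene Serpina3e-ps, which holds the shared 75-base windows of Serpina3n, is not in these sums.

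The make-up of the cluster, as shares of counts not adjusted for transcript length, differed with FGF8 at days 3 and 9. The day 9 shares follow from the fall that chose Serpina3n and are no result separate from it. Per kilobase of transcript, FGF8 cells at day 9 had 15.7 normalized counts of Serpina3c and 6.50 of Serpina3n. Serpina3n supplied 82.9%, 84.2% and 88.0% of all Serpina3 counts in untreated cells at days 0, 3 and 9. In FGF8 cells its share came to 87.2% before differentiation, 70.3% on day 3 and 13.4% on day 9 (18 of 134 counts, 95% exact binomial interval 8.16% to 20.4%). Serpina3c, a paralog on the minus strand at chr12:104110471-104141177, made up 63.4% of the counts of that last library (85 of 134, interval 54.7% to 71.6%), against 4.62% in untreated cells of the same day. The Serpina3c level itself was lower with FGF8, at 296.5 against 96.2 normalized counts at day 3 and 200.9 against 69.1 at day 9 (log2 fold changes -1.61 and -1.53). Serpina3h, which has 2 entries in the annotation, had 56.0 normalized counts in untreated and 5.62 in FGF8 cells on day 3, and 26.3 and 5.69 on day 9. The remaining Serpina3a, Serpina3b, Serpina3j and Serpina3k had at most 4 counts in any library. None of 14 other Serpina genes, among them the alpha-1-antitrypsin genes, reached a mean of 20 normalized counts at any day.

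**Figure D3:**
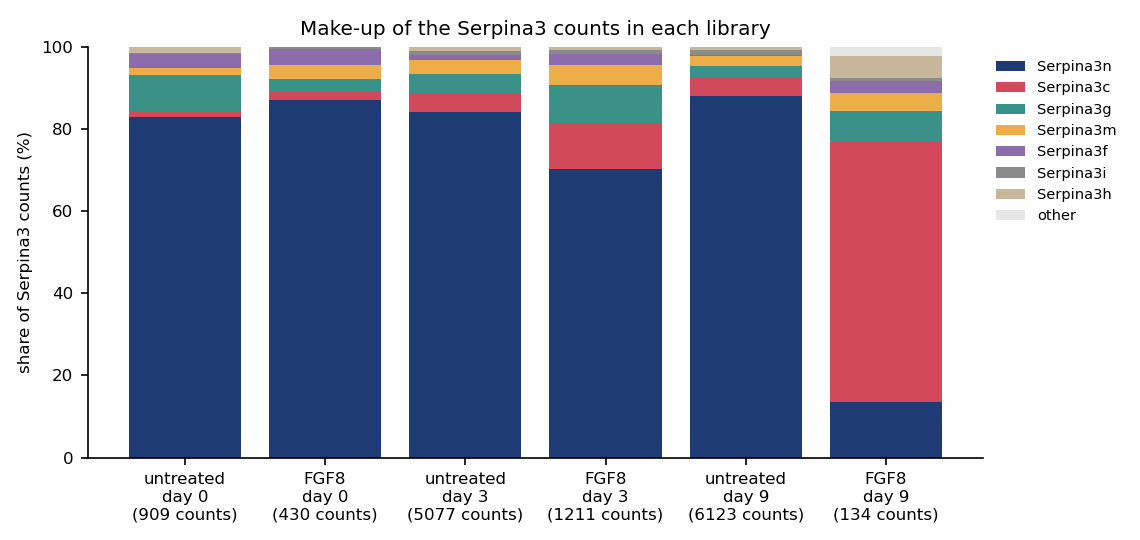
Share of all Serpina3 counts in percent (y axis) held by each gene of the cluster in the 6 libraries (x axis, with the summed count of the cluster in brackets). Serpina3n holds most of the counts in 5 libraries, and Serpina3c holds 63.4% in FGF8 cells at day 9, where the whole cluster has 134 counts.

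Lcn2, known as neutrophil gelatinase-associated lipocalin and an adipokine, was lower with FGF8 in adipocytes. It had 1770 normalized counts in untreated cells at day 3 and 334.3 at day 9, against 329.2 and 92.7 in FGF8 cells. The log2 fold changes were -2.42 (-2.58 to -2.27) and -1.84 (-2.16 to -1.55). At day 0 the direction was the other way, from 1 count in untreated and 10 counts in FGF8 cells, a log2 fold change of 2.48 with a wide interval (0.31 to 8.56). In either treatment the level was highest on day 3.

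Saa3, the serum amyloid made outside the liver, was the most abundant of the 9 genes per kilobase of transcript in untreated adipocytes. It had 1 and 2 counts at day 0, then 14286 normalized counts in untreated and 5281 in FGF8 cells on day 3, and 8854 and 254.5 on day 9. Both treatments thus had Saa3 on day 3, and on day 9 untreated cells had most of it and FGF8 cells little. The log2 fold changes were -1.44 (-1.48 to -1.39) at day 3 and -5.12 (-5.29 to -4.96) at day 9. The liver serum amyloids Saa1 and Saa2 stayed low, Saa1 with 63 counts in untreated and 2 in FGF8 cells at day 9 (log2 interval -7.86 to -2.87) and Saa2 with 38 and 0.

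Hp and Orm1 had the smallest log2 differences of the 9 genes in adipocytes. Hp had 16.2 normalized counts in untreated cells at day 0 (11 counts) and 0 counts in FGF8 cells, at least 4.21-fold lower when a count of 0 is set to 3. It then had 2991 and 1560 normalized counts on day 3 and 4015 and 1279 on day 9, with log2 fold changes of -0.94 (-1.02 to -0.86) and -1.65 (-1.73 to -1.57). Orm1 had no count at day 0 in either library. At day 3 it was higher with FGF8, at 548.5 against 906.9 normalized counts (log2 fold change 0.72, 0.57 to 0.89), and at day 9 lower, at 886.6 against 443.1 (-0.999, -1.15 to -0.85). Orm1 was the only 1 of the 9 genes above the untreated library at day 3. Its neighbors Orm2 and Orm3 were also higher with FGF8 at day 3, from few counts. Orm2 had 10.2 normalized counts in untreated and 26.7 in FGF8 cells, and Orm3 had 5.09 and 13.3. At day 9 Orm2 had 10 counts in untreated and 7 in FGF8 cells, too few to separate, and Orm3 had 15 and 3.

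**Figure D4:**
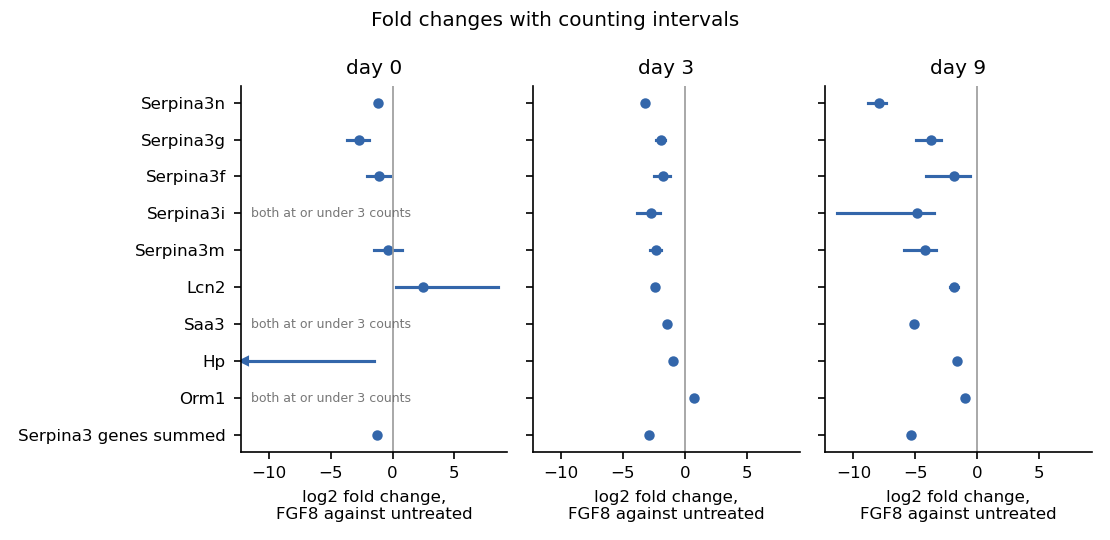
Log2 fold change of FGF8 against untreated (x axis) for the 9 genes and for the sum of the 11 Serpina3 genes (y axis) at each day, with points for the estimate and bars for the 95% counting interval. Bars with no point mark a count of 0 in 1 library, an arrow marks an interval without a lower end, and day 9 values run from -7.93 for Serpina3n to -0.999 for Orm1.

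Counted by a 2-fold rule, above the same minimum of 20, 3 of the 4 members that passed were lower with FGF8 at day 0 (Serpina3n, Serpina3g and Serpina3f), 7 of 9 at day 3 (all but Hp and Orm1) and 7 of 8 at day 9 (all but Orm1, which was 2.00-fold lower by ratio and just under the rule on the log2 scale with its pseudocount). None was 2-fold higher. Among all genes that passed, 10.8% were lower and 7.27% higher at day 0, 12.1% lower and 3.8% higher at day 3, and 8.74% lower and 1.12% higher at day 9. The median log2 fold change over the members that passed was -1.14, -1.95 and -3.96, and over all genes 0.054, 0.081 and 0.083. Several members passed at day 9 only through the untreated library, so these counts and medians describe the list and support nothing further.

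The effect of FGF8 shared by days 0 and 3, libraries that the choice by the day 9 fall did not use, was fitted with day as a block in edgeR. The fit has 1 residual degree of freedom. No gene was called at an adjusted p under 0.05, 0% of 13743 in either direction, and 1868 had an unadjusted p under 0.05. DESeq2 with the same model called 90 genes higher and 553 lower. For Serpina3n the edgeR log2 fold change was -2.22 ± 0.56 (SE), lower in both of 2 pairs, with an adjusted p of 0.317, and for Serpina3g it was -2.32 ± 0.45 with an adjusted p of 0.287. DESeq2 called these 2 of the 9 genes, with adjusted p of 0.00204 and 0.0140. The other members that edgeR tested had adjusted p of 0.354 to 0.643, and Serpina3i was filtered out. The call for Serpina3n and Serpina3g thus rests on the tool.

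The day of harvest was compared over both treatments, with treatment as a block. The fit used all 6 libraries for either pair of days. The day 9 values that chose Serpina3n thus enter its estimate and error also for day 0 to day 3. From day 0 to day 3, edgeR called 5 of the 9 genes higher: Hp (log2 fold change 8.43 ± 0.66, adjusted p 0.00305), Orm1 (12.62 ± 1.11, 0.00514), Saa3 (12.77 ± 1.66, 0.00632), Lcn2 (6.69 ± 1.07, 0.00968) and Serpina3g (1.83 ± 0.52, 0.0400). None was called lower. Of all 14569 genes tested, 26.2% were called higher and 19.8% lower, and the day 0 libraries stood apart as described. Where a group has no count, as for Orm1, the fitted size depends on the prior count. Without the treatment block, the adjusted p of Serpina3g was 0.443. Serpina3n was not called (0.96 ± 1.39, adjusted p 0.594), its log2 fold change being 2.30 in untreated cells (2.19 to 2.41) and 0.31 in FGF8 cells (0.14 to 0.49), a difference that was not tested.

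From day 3 to day 9, edgeR called none of the 9 genes, 9 genes in all higher (0.0618%) and 1 lower (0.00686%), with 3110 at an unadjusted p under 0.05. DESeq2 called 861 higher and 475 lower, among them Serpina3g (log2 fold change -2.20, adjusted p 0.00703) and Serpina3f (-2.63, 0.0137). The comparison of days 3 and 9 uses the libraries by whose day 9 fall Serpina3n was chosen. For the members its values are therefore no test separate from the choice. The treatments differed in size here, which was not tested. In untreated cells Serpina3n was at a log2 fold change of -0.51 (-0.57 to -0.45) and Saa3 at -0.69 (-0.73 to -0.65). In FGF8 cells they were at -5.26 (-6.11 to -4.68) and -4.37 (-4.54 to -4.21). For Hp these log2 fold changes were 0.42 and -0.29.

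Levels can be compared between genes only per length, and are given here as normalized counts per kilobase of the canonical transcript. Untreated preadipocytes had 1 clearly expressed member, Serpina3n at 492.0, with Serpina3g next at 58.0. In untreated cells at day 3 the order was Saa3 at 14187, Serpina3n at 2418, Hp at 2222, Lcn2 at 1935 and Orm1 at 664.9, and the counting intervals of these 5 did not overlap. At day 9 in untreated cells it was Saa3, Hp, Serpina3n, Orm1 and Lcn2. In FGF8 cells at day 9 it was Hp at 950.0, Orm1 at 537.0, Saa3 at 252.7 and Lcn2 at 101.3, and Serpina3n had rank 5 at 6.50 (counting interval 3.85 to 10.3), which overlapped that of Serpina3g at 3.92 (1.88 to 7.21).

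The pattern of Serpina3n over the 6 libraries was closest to that of 5 genes among 13256 that averaged 20 or more normalized counts, by Pearson correlation of log2(normalized count + 1): Scml4 (r = 0.988), Igfbp6 (0.975), Slc22a4 (0.973), Gli2 (0.970) and Il1rl2 (0.969). Within the members, r was 0.927 with Serpina3m, 0.904 with Serpina3g, 0.812 with Serpina3f and 0.790 with Serpina3i, and 0.323 with Saa3, 0.281 with Lcn2, 0.117 with Hp and 0.022 with Orm1. These values describe 6 libraries, 2 of which stand apart, and the paralogs may share reads. The 6 include the day 9 libraries whose values chose Serpina3n, so the correlations are not separate from that choice. Igfbp6, an IGF-binding protein of fibroblasts, had 4015 normalized counts in untreated and 232.5 in FGF8 cells at day 9.

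Other acute-phase genes were lower in part. In the lists that follow, each set of 3 values gives the log2 fold changes of FGF8 against untreated at days 0, 3 and 9. Counts in each list stand beside the shares of all genes by the same rule. These were 10.8%, 12.1% and 8.74% lower and 7.27%, 3.8% and 1.12% higher. Of 22 listed, 7, 9 and 10 passed the filter at days 0, 3 and 9, and 4, 4 and 5 of these were at least 2-fold lower with FGF8 and none higher, with medians of -1.44, -0.55 and -0.93. Complement C3, the central component of the complement cascade, was at 123612 against 48136 normalized counts at day 3 and at 92030 against 13414 at day 9 (log2 fold changes -1.36 and -2.78, after -3.75 at day 0). The lipopolysaccharide-binding protein Lbp had log2 fold changes of -1.44, -2.09 and -3.40, and the IL-1 receptor antagonist Il1rn at -1.81, -1.10 and -0.37. The metalloreductase Steap4 was at -1.48, 0.58 and -0.62. Among plasma proteins that fall in the acute phase, 2 were lower at day 9, Ahsg (fetuin-A) at -3.82 and transferrin (Trf) at -1.49, and the retinol carrier Rbp4 was higher, at 1.11 at day 3 and 1.23 at day 9.

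Few ligands of the pathway were expressed. Of 11 listed, 6, 3 and 2 passed the filter. Of these, 1, 2 and 1 were at least 2-fold lower with FGF8 and 2, 0 and 0 higher. The medians were 0.44, -1.26 and -2.53. The 2 higher at day 0 were Il33 and Il11, a ligand of the IL-6 family. Il33, an alarmin of the IL-1 family, was far higher with FGF8 at day 0, at 88.1 against 6194 normalized counts (log2 fold change 6.12), and lower at days 3 and 9 (-3.00 and -4.47). Il6 had 51.4 against 16.6 normalized counts at day 0 (-1.57) and at most 35.6 later. The other IL-6 family ligands Clcf1, Ctf1 and Lif were at 0.55, -0.53 and 0.33 at day 0 and -0.76, -0.51 and -1.26 at day 3.

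The receptors were mostly lower. All 13 passed the filter, 5, 9 and 8 of them were at least 2-fold lower with FGF8 and none was higher, with medians of -0.58, -1.40 and -1.15. Il6st, which encodes gp130, had log2 fold changes of -1.38, -1.51 and -1.13, the oncostatin M receptor Osmr at -0.19, -2.18 and -2.26, and the LIF receptor Lifr at -2.59, -0.89 and -0.75. On the same scale the innate receptor Tlr2 was at -1.01, -2.08 and -2.54, the TNF receptor Tnfrsf1b at -1.26, -1.77 and -2.04, and Il1r1 at -0.76, -1.25 and -1.30. Many of these receptors are expressed by fibroblasts and the preadipocyte markers were lower with them. Their part in these values was not tested.

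The transcription factors and their regulators had smaller median differences. Of 15 listed, all passed, 2, 5 and 3 were at least 2-fold lower and 1, 0 and 0 higher, with medians of -0.0041, -0.76 and -0.36. The day 0 counts are near the shares of all genes, 10.8% lower and 7.27% higher. The log2 fold changes of Stat3 were -0.45, -1.11 and -1.0, those of Cebpd 0.30, -1.54 and -1.87, and the STAT3 target and inhibitor Socs3 0.26, -1.14 and -1.60. Cebpb, at log2 fold changes of 1.02, 0.67 and 0.26, was the 1 gene called higher. The NF-kB inhibitor Nfkbia was at -1.46, -0.76 and -0.77 on this scale.

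Glucocorticoid targets did not move together. The paper lists the glucocorticoid dexamethasone in the induction mix of the first 2 days of differentiation, and not in the medium after it. By the paper's count of days, no harvest was thus in medium with added dexamethasone. Cells of days 3 and 9 had been exposed to it earlier, and cells of day 0 had not. Of 9 listed, 8, 9 and 9 passed, 1, 2 and 2 were lower and 0, 0 and 1 higher, with medians of -0.56, -0.27 and 0.075. The log2 fold change of Sgk1 was -1.12, -1.52 and -1.30, that of Errfi1 0.86, -1.18 and -1.04, that of Cdkn1c 1.08 at day 9, and that of Fkbp5 0.87, -0.27 and -0.07. Among 13 targets, binding partners and receptors of these proteins, the protease Mmp9, which binds Lcn2, was at 442.1 against 44.8 normalized counts at day 0 (-3.27). Lrp1, a clearance receptor for protease-inhibitor complexes, had log2 fold changes of -0.07, -1.80 and -1.26, the Lcn2 receptor Slc22a17 at -0.45, -1.09 and -0.36, and Hmox1 at -0.31, -0.82 and -0.32.

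**Figure D5:**
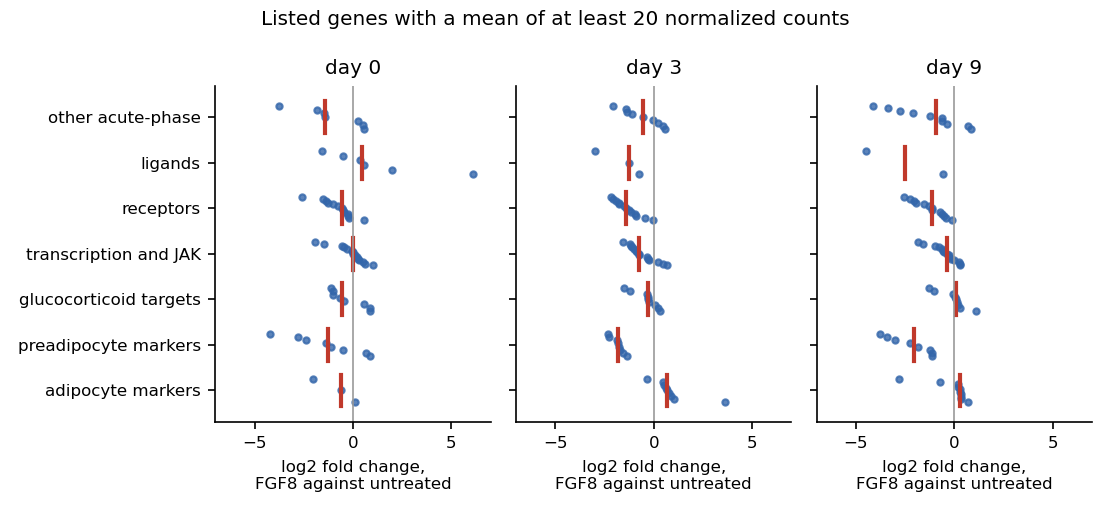
Log2 fold change of FGF8 against untreated (x axis) for each listed gene that passed the same minimum (points), by list (y axis) and day, with a red bar at the median. The receptor median lies at -1.15 and the preadipocyte marker median at -2.04 at day 9, and the adipocyte marker median at 0.29.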

How the data were processed

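Bulk RNA sequencing was deposited for 6 mouse libraries, 1 per combination of treatment and day. The authors used TrimGalore for trimming, HISAT2 for alignment to GRCm39 and featureCounts for counting, and the deposited values are raw counts per gene symbol. Tool versions, annotation, strand and multi-mapping settings are not given in the sources used here. Total counts ranged from 16403254 to 38551551 and set the precision. The methods call the controls vehicle-treated, and the growth protocol label describes primary white cells, whereas titles and design describe immortalized brown cells. No 2 libraries had identical counts.

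Counts were divided by DESeq2 (1.42.0) size factors. Fold changes are differences of log2(normalized count + 1), with 95% Clopper-Pearson intervals of the ratio of 2 counts (scipy 1.17.1). Intervals and the floor of 3 counts cover counting error only. The 2-fold rule was applied to genes averaging 20 or more normalized counts over a pair. edgeR (4.0.16, TMM, filterByExpr, quasi-likelihood, Benjamini-Hochberg) tested day with treatment as a block and FGF8 over days 0 and 3 with day as a block; nothing shows that the libraries are separate cultures. Standard errors follow from its F statistic. Tested on simulated data, the fit of day 3 against day 0 called 199 of 200 genes given an 8-fold change, and 9 unchanged genes, among 14432, and the fit of FGF8 over days 0 and 3 called 200 of 200 and 18 unchanged genes among 13943. The simulated counts had the same fixed dispersion for every gene and no other difference between libraries apart from depth. These rates do not carry over to the real libraries, where the FGF8 fit called no gene. Of the symbols, 23897 were found in GENCODE M39, which gave positions and lengths. Coding sequences were aligned with MAFFT (7.526). The work used R 4.3.3, Python 3.11.15 and pandas 2.3.3.

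The members, lists, motifs and tests were chosen with earlier results of these data known. Named genes are the 9 members, other Serpina3 genes, up to 4 genes per list with the largest change at a mean of at least 100, the largest falls at day 9 after Serpina3n, and the 5 genes most correlated with it. Il6, Il11, Il6st, Il1r1, Stat3, Cebpb, Fkbp5, Csf1r, Saa1, Saa2, Orm2 and Orm3 were named outside this rule after their values were seen. The alternatives tried were TMM, total counts, size factors within a pair, other pseudocounts, filters and folds, DESeq2's Wald test and no block.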

Additional observations from a re-analysis of the deposited data

Results flagged for a closer look

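Lcn2 and Orm1 had log2 fold changes of FGF8 against untreated that differed in sign between days. For Lcn2 the value was 2.48 at day 0, from 10 counts against 1. At days 3 and 9 it was -2.42 and -1.84. The day 0 pair of Lcn2 had a mean of 7.14 normalized counts and did not pass the filter used for the fold counts. The day 0 libraries also stood apart from the later ones, so the Lcn2 contrast cannot be told apart from low counts or a difference in the source of the cells. For Orm1, which passed the filter at days 3 and 9, the log2 fold change was 0.72 at day 3, from 1292 counts against 431. At day 9 it was -0.999, from 545 counts against 1249. The difference between days was not tested, since each condition has 1 library.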

How the results depend on the processing

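No result changed direction under the alternatives tried, and the log2 fold change of Serpina3n stayed between -1.24 and -1.15 before differentiation, -3.29 and -3.18 on day 3, and -8.02 and -7.61 on day 9. Without a filter 1 member was higher at day 0, and with a 1.5-fold rule 1 was higher at day 3. With a mean of at least 100, 1 member was lower at day 0 and 4 at day 9. With a 4-fold rule 1 was lower at day 0 and 4 at day 3. Scaling by total counts moved the log2 fold change at day 3 to -3.13 for the 5 paralogs summed and -3.03 for all 11 Serpina3 genes. For day 3 against day 0, leaving out the treatment block gave 1671 genes lower. For day 9 against day 3, DESeq2 called 861 genes higher and 475 lower with 2 members lower, no filter gave 199 and 69, and no block gave 2 higher. For FGF8 over days 0 and 3, DESeq2 called 90 genes higher and 553 lower with 2 members lower. The cause of these shifts was not tested. No paired analysis was possible by replicate number because each group has 1 library, and the blocks in these fits were day or treatment. Depth limits Serpina3f, Serpina3i and Serpina3m, and all members but Serpina3n at day 0.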
